A study of Sus scrofa with 8 samples.

Results

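The MAP kinase cascade genes are the kinases named for their tier in the cascade, from MAP4K through MAP3K and MAP2K to MAPK, with the proteins whose symbols carry those names. They were taken as every row of the deposited gene table whose symbol begins with MAPK, MAP2K, MAP3K or MAP4K, and where a symbol repeated, the row with the highest mean level was used. This gave 39 rows and 37 genes, of 25285 genes in the table. By tier there were 4 MAP4K genes, 14 MAP3K genes, 4 MAP2K genes and 9 MAPK genes, with 2 MAPK-activated kinases and 4 scaffolds or other named genes.

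The cascade passes a signal along by phosphorylation, each kinase activating the one of the next tier. A MAP4K or a RAS protein acts on a MAP3K, which phosphorylates a MAP2K, which in turn phosphorylates a MAPK on a threonine and a tyrosine of its activation segment. The MAPKs fall into the ERKs, which respond mainly to growth factors, and the JNKs and p38 kinases, which respond mainly to stress and cytokines. In muscle precursors, ERK signalling is known to accompany proliferation, and p38 activity is needed for the muscle program to start. Activity is set by phosphorylation, which RNA levels do not measure.

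RNA was sequenced from primary cells of pig skeletal muscle, strain LYD in the labels, which the protocol calls MuSCs. The groups were undifferentiated female, undifferentiated male, differentiated female and differentiated male cells, with 2 libraries each and thus 4 per state. Neither the age of the pigs nor the days in culture, the medium or the number of animals is given in the sources used here, and the p-values therefore rest on how far these libraries vary, which may be technical variation alone. Values are FPKM, which divide the fragments of a gene by its length and by the total of mapped fragments, so they compare levels between genes per length, and ± gives the SD over the 4 libraries of a state. Where 4 values follow each other, they are female replicates 1 and 2 and then male replicates 1 and 2.

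The depth in reads is unknown. The relative depth, estimated from genes with low values and set to 1 in differentiated female replicate 1, was 1.64 to 2.26 in the undifferentiated libraries and 1 to 1.63 in the differentiated ones. The labels fit the 5 myotube markers found. They summed to 52.6 to 156 FPKM in undifferentiated and 9368 to 13426 FPKM in differentiated libraries. Of them MYH3, embryonic myosin, stood at 2.15 to 8.88 FPKM in undifferentiated cells and at 3490 to 5098 FPKM in differentiated ones. Of the marker lists, PAX7 and MYF5 were not matched by symbol, and 3 of 5 muscle cell markers were found. Of these, DES and NCAM1 were higher in differentiated cells. MYOD1 was lower, at 156 to 221 FPKM in undifferentiated and 80.1 to 105 FPKM in differentiated libraries. Other cells can be present: 5 of 6 fibroblast markers were found, with a summed level of 71.6 to 142 FPKM in undifferentiated and 254 to 348 FPKM in differentiated libraries, most of it COL3A1. The sum of 4 proliferation markers was 163 to 238 FPKM in undifferentiated and 14.2 to 59.2 FPKM in differentiated libraries. Differentiated male replicate 1 was the highest differentiated library in both sums. The summed immune markers were 12.2 to 17.1 against 3.61 to 6.42 FPKM, with the leukocyte marker PTPRC under 1 FPKM in every library. The lower sum came from CD14 (11.5 to 15.2 against 1.74 to 2.46 FPKM), while CD3E went from 0 to 0.129 up to 0.469 to 2.41 FPKM. The summed smooth muscle and pericyte markers were 28.3 to 70.3 against 139 to 150 FPKM, most of it NOTCH3, with PDGFRB (46.7 FPKM) and CSPG4 (8.55 FPKM) highest in differentiated male replicate 1. In bulk RNA, fewer cells of a type and less RNA per cell cannot be told apart, and the part of these cells in the results below was not tested.

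Of the 37 genes, 29 had a mean of at least 1 FPKM and were tested, and 8 were below it. With differentiation 2 of the 29 rose, MAP3K7CL and MAP2K1, and 9 fell, while 18 did not pass (limma, adjusted p under 0.05 over all 12963 tested genes). Among the genes that fell were MAP4K4, MAP3K1, MAP3K12, MAP3K3, MAPK9, MAPK6, MAPKAPK3 and MAPK1IP1L. Those that fell made 31% of the tested cascade genes, where 31.9% of all tested genes fell, and those that rose made 6.90%, where 18.0% of all tested genes rose. In all, 37.9% of the cascade genes were called against 50.0% of all tested genes. The median log2 fold change was -0.28 over the 29 genes and -0.18 over all tested genes.

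Median-ratio scaling of the libraries raised the median of all tested genes by 0.207 on the log2 scale. Of the cascade genes 4 then rose and 6 fell, and over all tested genes 3252 rose and 2915 fell, against 2339 and 4137 without it. The falls of MAPK9, MAPK6 and MAPKAPK3 were not called under this scaling or after quantile normalization, and under both those of MAP4K4, MAP3K1, MAP3K12, MAP3K3 and MAPK1IP1L were. MAP2K7 and MAPK8IP1 were called as higher under median-ratio scaling, and MAPK8IP1 also after quantile normalization.

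**Figure D1:**
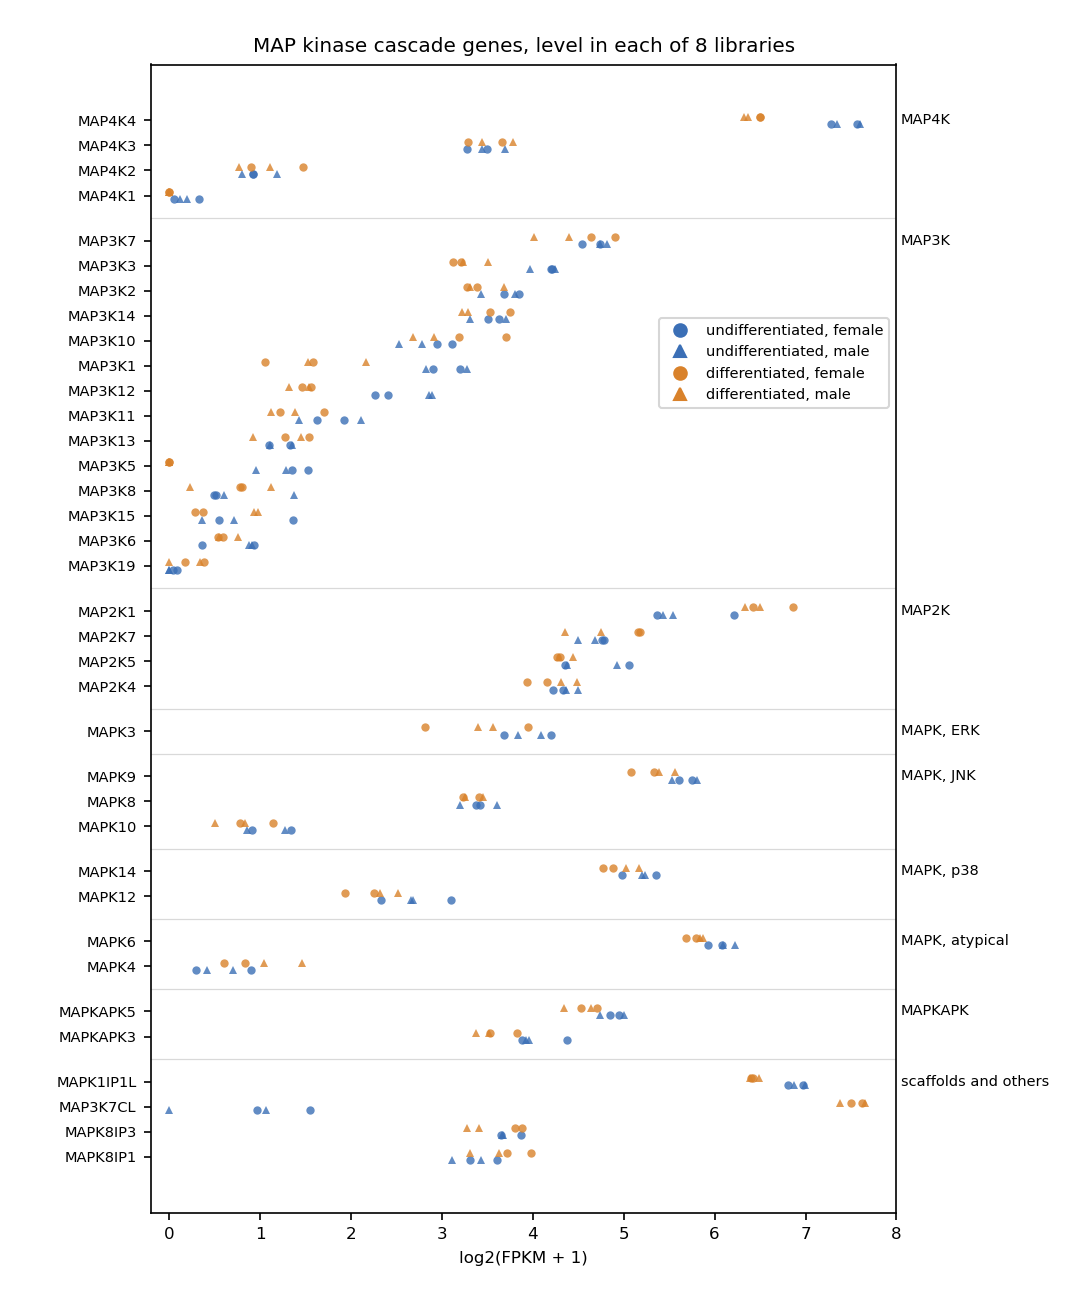
Level of the MAP kinase cascade genes described here in each library, as log2(FPKM + 1), grouped by tier and ordered by mean level within a tier. Circles are female and triangles male libraries, blue undifferentiated and orange differentiated. MAP3K7CL has its 4 differentiated libraries to the right of all other differentiated values, while MAP4K4 has its own to the left of the undifferentiated ones.

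The MAP4K tier stands at the top of the cascade and links receptors and small GTPases to the MAP3Ks. MAP4K4, a STE20-type kinase that acts towards JNK and on cell movement, had the highest mean level of the 37 genes over all 8 libraries. It lies on chromosome 3 (ENSSSCG00000008164, 55031471 to 55095734, build Sscrofa10.2, as are all positions here). It stood at 189, 155, 162 and 193 FPKM in undifferentiated cells and at 89.7, 89.3, 79.1 and 81.7 FPKM in differentiated cells. The states did not overlap, and the 4 differentiated libraries lay close together. MAP4K4 fell from 175 ± 19.3 to 84.9 ± 5.37 FPKM (log2 fold change -1.03 ± 0.103 SE, limma adjusted p = 0.000606), and by 0.93 in females and 1.13 in males on the log2 scale. It made 93.9% ± 0.364 of the summed FPKM of the 4 MAP4K genes in undifferentiated cells and 87.7% ± 2.03 in differentiated ones.

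The other MAP4K genes were at lower levels. MAP4K3, a kinase of amino acid sensing and stress signalling, was at 8.70 to 12 FPKM in undifferentiated and 8.78 to 12.8 FPKM in differentiated cells, with overlapping groups (log2 0.07, 95% interval -0.29 to 0.42, limma adjusted p = 0.733). MAP4K2 was near 1 FPKM in both states (log2 0.11, limma adjusted p = 0.732). MAP4K1, known from blood cells, was below the level tested. It reached 0.0358 to 0.253 FPKM before differentiation, and the 4 differentiated libraries all list it at 0.

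The MAP3K tier held 14 genes, of which 9 were tested, 3 fell and 6 did not pass. The 3 that fell had states that did not overlap. The highest level of any MAP3K gene in a library was 28.9 FPKM, in MAP3K7.

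MAP3K1, a kinase upstream of JNK that also carries a ubiquitin ligase domain (ENSSSCG00000016918, chromosome 16, 38138091 to 38212909), had the largest fall of the tested cascade genes. It stood at 8.15, 6.47, 6.06 and 8.65 FPKM in undifferentiated cells and at 2.00, 1.07, 1.88 and 3.47 FPKM in differentiated cells. All differentiated libraries were low, with differentiated male replicate 2 the highest of them. The log2 fold change was -1.47 ± 0.226 SE (limma adjusted p = 0.00287).

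MAP3K12, a kinase of axon injury signalling that acts on JNK (ENSSSCG00000000275, chromosome 5, 19136357 to 19152720), stood at 3.81, 4.29, 6.40 and 6.27 FPKM in undifferentiated cells. In differentiated cells it was at 1.76, 1.95, 1.5 and 1.9 FPKM. Both undifferentiated male libraries were above both undifferentiated female ones, and the differentiated libraries did not show that order. It fell with a log2 fold change of -1.14 ± 0.128 SE (limma adjusted p = 0.000916).

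MAP3K3, an activator of MAP2K5 and of the stress branches (ENSSSCG00000024813, chromosome 12, 15217902 to 15285638), stood at 17.5, 17.4, 18.0 and 14.7 FPKM in undifferentiated cells. It was at 7.67, 8.25, 10.3 and 8.39 FPKM in differentiated cells. The groups were well apart, and it fell with a log2 fold change of -0.89 ± 0.110 SE (limma adjusted p = 0.00127). Its close relative MAP3K2 was at 12 ± 1.62 and 9.69 ± 1.45 FPKM with overlapping groups (log2 -0.28, 95% interval -0.62 to 0.06, limma adjusted p = 0.139).

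MAP3K7, the TGF-beta-activated kinase that feeds p38, JNK and NF-kappa-B, had the highest mean of the MAP3K genes (ENSSSCG00000004334, chromosome 1, 65478905 to 65542600). It stood at 25.7, 22.3, 27.1 and 25.7 FPKM in undifferentiated cells and at 28.9, 23.9, 15.2 and 20.1 FPKM in differentiated ones. The female values overlapped between states, while both differentiated male libraries lay below all the undifferentiated libraries. Averaged over the sexes it did not pass (log2 -0.22, 95% interval -0.52 to 0.09, limma adjusted p = 0.193).

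Of the remaining tested MAP3K genes, MAP3K14, the NF-kappa-B-inducing kinase, was at 10.7 ± 1.36 and 10.0 ± 1.89 FPKM (log2 -0.09, 95% interval -0.39 to 0.21). The mixed-lineage kinases MAP3K10, MAP3K11 and MAP3K13 had log2 fold changes of 0.28, -0.42 and 0.08 and did not pass. MAP3K13, with a mean of 1.41 FPKM, shares parts of its span with rows on the other strand that had means of 3.525 and 9.82 FPKM. The 5 MAP3K genes below the level tested were MAP3K5, MAP3K6, MAP3K8, MAP3K15 and MAP3K19. MAP3K15 shares part of its span with PDHA1 on the other strand, which had a mean of 152 FPKM. Among these 5, MAP3K5, the stress kinase ASK1, was the only one whose states did not overlap. It was at 0.934 to 1.88 FPKM before differentiation, and afterwards it was listed at 0 in both female libraries and at under 0.0001 FPKM in both male ones.

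The MAP2K tier holds the dual-specificity kinases that phosphorylate the MAPKs. Of its 4 genes 1 rose and 3 did not pass. MAP2K1, the kinase directly upstream of the ERKs, was held by the table in a row of 2170 bp (ENSSSCG00000029873, chromosome 1, 182175684 to 182177853, plus strand). It stood at 73.2, 40.4, 42.2 and 45.6 FPKM in undifferentiated cells and at 84.9, 115, 79.6 and 89.5 FPKM in differentiated cells. The states did not overlap, although undifferentiated female replicate 1 came near the lowest differentiated library. MAP2K1 rose with a log2 fold change of 0.89 ± 0.208 SE (limma adjusted p = 0.0139).

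MAP2K7, which acts on JNK, stood at 26.5, 26.1, 21.6 and 24.6 FPKM in undifferentiated cells and at 35.1, 34.7, 19.5 and 25.8 FPKM in differentiated ones. Both differentiated female libraries were above every undifferentiated library, and the male ones were not. It did not pass (log2 0.18, 95% interval -0.09 to 0.45, limma adjusted p = 0.23), and under median-ratio scaling it was called as higher (log2 0.40, limma adjusted p = 0.0333). MAP2K4, which acts on JNK and p38, was at 19.5 ± 1.64 and 17.8 ± 3.05 FPKM (log2 -0.13, 95% interval -0.37 to 0.11). MAP2K5, upstream of the large kinase ERK5, was at 25.2 ± 6.66 and 19.1 ± 1.12 FPKM (log2 -0.35, 95% interval -0.84 to 0.13).

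MAPK3, which encodes ERK1 and lies on the unplaced scaffold GL892764.1 (ENSSSCG00000021684, 7003 to 11913), was at 11.9, 17.3, 16.0 and 13.3 FPKM and then at 6.01, 14.5, 10.8 and 9.49 FPKM. Differentiated female replicate 2 lay among the undifferentiated libraries. Its interval was wide (log2 -0.52, 95% interval -1.19 to 0.14, limma adjusted p = 0.157), and without that library the log2 fold change was -0.81. MAPK3 was not called under median-ratio scaling (log2 -0.31, limma adjusted p = 0.405) or after quantile normalization (log2 -0.35, limma adjusted p = 0.35).

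Among the JNK genes, MAPK9, which encodes JNK2 (ENSSSCG00000014010, chromosome 2, 79823591 to 79881875), had the highest level. It was at 52.8, 47.9, 54.8 and 45.3 FPKM in undifferentiated and at 39.2, 32.9, 41.0 and 46.4 FPKM in differentiated cells. The states overlapped, since differentiated male replicate 2 was above undifferentiated male replicate 2. MAPK9 fell by a small margin (log2 -0.33 ± 0.110 SE, limma adjusted p = 0.0473). It was not called under median-ratio scaling (adjusted p = 0.402) or with 1 library left out, in 6 of 8 cases, all but those of undifferentiated male replicate 2 and differentiated female replicate 1 (adjusted p up to 0.134). MAPK8, which encodes JNK1, was at 8.20 to 11.2 and 8.36 to 9.97 FPKM (log2 -0.06, 95% interval -0.37 to 0.25, limma adjusted p = 0.703). MAPK10, which encodes the JNK3 of nerve and heart, was below the level tested, with values of 0.418 to 1.52 FPKM.

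Neither p38 gene passed. MAPK14, which encodes p38 alpha (ENSSSCG00000001556, chromosome 7, 36725707 to 36795310), was at 40.0, 30.5, 36.6 and 35.8 FPKM in undifferentiated cells. In differentiated cells it stood at 26.2, 28.5, 35.1 and 31.5 FPKM. The groups overlapped, with the 2 differentiated female libraries the lowest of the 8 (log2 -0.23, 95% interval -0.50 to 0.04, limma adjusted p = 0.13). MAPK12, which encodes p38 gamma, the form known for its abundance in skeletal muscle, was at 4.04, 7.59, 5.30 and 5.42 FPKM and then at 3.76, 2.83, 4.74 and 3.99 FPKM. Its row spans 5431 bp of the scaffold GL896307.1 (ENSSSCG00000027308). Only undifferentiated female replicate 1 and differentiated male replicate 1 kept the groups from being apart, and it did not pass (log2 -0.44, 95% interval -0.92 to 0.05, limma adjusted p = 0.117). MAPK14 was above MAPK12 in each of the 8 libraries.

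The atypical kinase MAPK6, which encodes ERK3 (ENSSSCG00000004624, chromosome 1, 132815458 to 132850067), was at 66.7, 59.7, 74 and 67.5 FPKM and then at 54.7, 50.5, 57.6 and 56.3 FPKM. The groups were close but did not overlap. It fell (log2 -0.28 ± 0.0824 SE, limma adjusted p = 0.0305), but was not called under median-ratio scaling (log2 -0.06, adjusted p = 0.566). Nor was it with 1 library left out in 5 of 8 cases, undifferentiated female or male replicate 1, differentiated female replicate 2 or either differentiated male (adjusted p up to 0.097). Its relative MAPK4 was below the level tested, at 0.226 to 1.76 FPKM.

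Of the kinases that MAPKs activate, MAPKAPK3, a target of p38, stood at 13.7, 19.7, 14.2 and 14.6 FPKM in undifferentiated cells and at 10.5, 13.1, 10.4 and 9.40 FPKM in differentiated cells. The states did not overlap, and undifferentiated female replicate 2 stood above the rest. MAPKAPK3 fell (log2 -0.48 ± 0.141 SE, limma adjusted p = 0.0327). It was not called under median-ratio scaling (adjusted p = 0.197) or with 1 library left out in 6 of 8 cases, all but those of undifferentiated female replicate 1 and differentiated female replicate 2 (adjusted p up to 0.0919). MAPKAPK5, which acts with MAPK6 and had the higher level, was at 29.8, 27.8, 25.8 and 31.1 FPKM and then at 25.1, 22.0, 19.2 and 23.9 FPKM. The states did not overlap, and it did not pass (log2 -0.33, 95% interval -0.61 to -0.05, limma adjusted p = 0.0522).

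**Figure D2:**
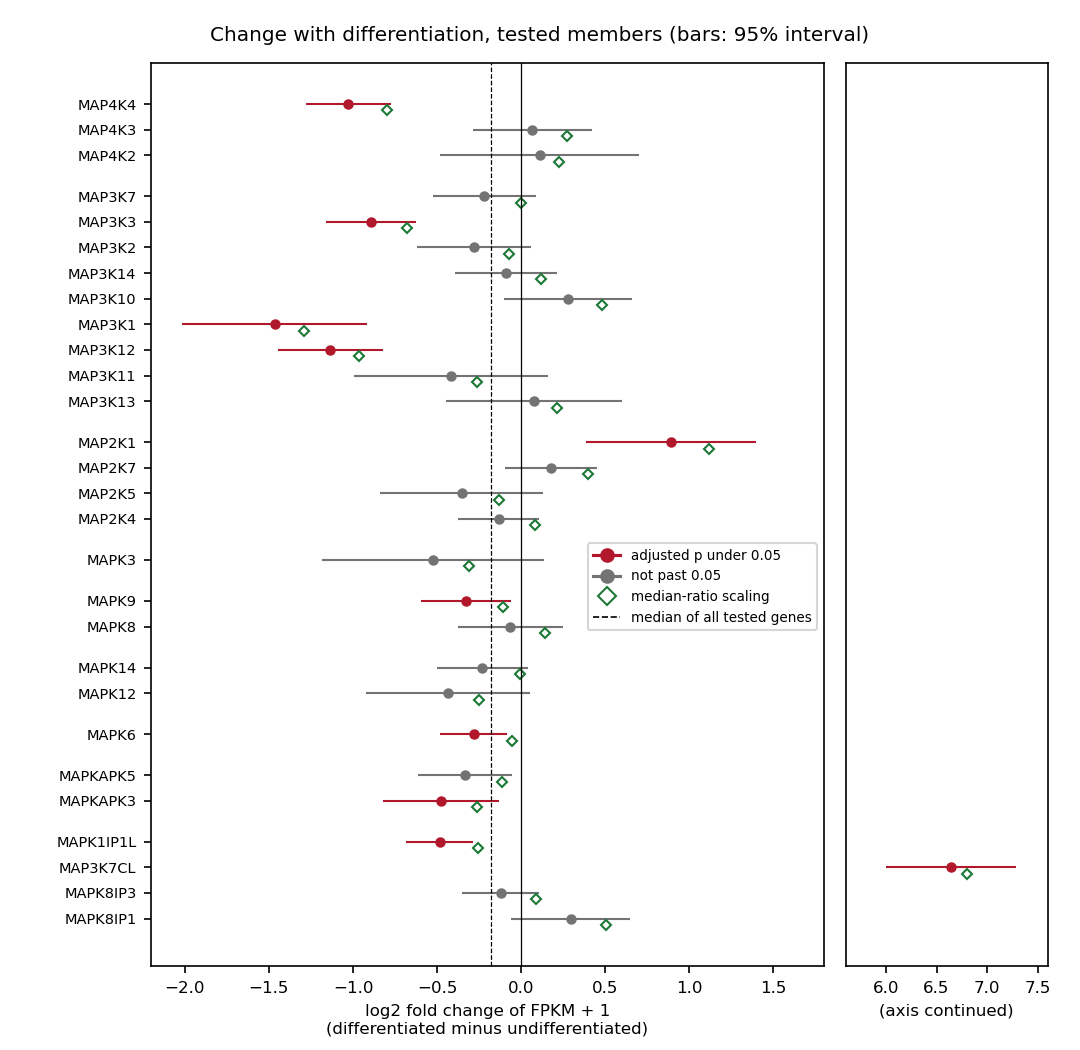
Log2 fold change of FPKM + 1 from undifferentiated to differentiated cells for the tested genes described here, in the order of the tiers. Circles are estimates with 95% intervals, red where the adjusted p was under 0.05, diamonds are the values under median-ratio scaling, and the dashed line is the median of all tested genes, -0.18. MAP3K7CL stands alone at 6.64, MAP2K1 at 0.89, and the other red points lie between -1.47 and -0.28.

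Of the 4 scaffolds and other named genes 1 rose, 1 fell and 2 did not pass. MAP3K7CL, a short protein that resembles the C-terminal part of MAP3K7 and has no kinase domain, lies on chromosome 13 (ENSSSCG00000012028, 202866434 to 202893927). It was at 0.950, 1.91 and 1.09 FPKM in 3 undifferentiated libraries and listed at 0 in male replicate 2. In differentiated cells it stood at 180, 196, 200 and 165 FPKM, all above every differentiated value of the other 36 genes, which reached at most 115 FPKM in MAP2K1. It rose with a log2 fold change of 6.64 ± 0.263 SE (limma adjusted p = 2.48e-05), the 43rd highest of 12963 tested genes. On the log2(FPKM + 1) scale the change of a gene this low in a group is understated, and with a pseudocount of 0.1 it was 8.03. The 2 sexes gave 6.31 in females and 6.98 in males.

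MAPK1IP1L (ENSSSCG00000005054, chromosome 1, 204908530 to 204920066) was at 125, 111, 127 and 116 FPKM and then at 84.8, 83.6, 88.8 and 82.9 FPKM. The differentiated libraries were tightly grouped below the undifferentiated ones. It fell (log2 -0.49 ± 0.0820 SE, limma adjusted p = 0.00412), and under median-ratio scaling the fall was smaller (log2 -0.26, adjusted p = 0.0401).

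The JNK scaffolds did not pass. MAPK8IP1, a scaffold that holds JNK with its upstream kinases, was at 8.88, 11.2, 9.79 and 7.62 FPKM and then at 12.2, 14.7, 11.4 and 8.88 FPKM. Both differentiated female libraries were above every undifferentiated library, but the groups overlapped through differentiated male replicate 2 (log2 0.29, 95% interval -0.06 to 0.65, limma adjusted p = 0.142). Under median-ratio scaling it was called as higher (log2 0.50, adjusted p = 0.0328). MAPK8IP3, which also links JNK to transport motors, was at 12.2 ± 0.969 and 11.3 ± 2.48 FPKM (log2 -0.12, 95% interval -0.35 to 0.11).

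Without regard to the test, the 4 differentiated libraries lay all above the undifferentiated ones for 2 of the 29 tested genes, 17.1% of all tested genes doing so, and all below for 9, where the share of all tested genes was 30.2%. Those 9 held MAPKAPK5, which was not called, and did not hold MAPK9, which was.

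Among the 37 genes, each tier kept its most abundant gene between the states, apart from the scaffolds and other named genes. The 13 rows named only from the identifier table or the alias MKK6 are outside this ranking and the sums below. MAP2K2, MAPKAPK2, MAP3K4, MAP3K20 and the longer row of MAP3K5 are among them. The second rows of MAP2K1 and MAP3K7 are outside as well. MAP2K2 (56.1 and then 64.5 FPKM) was above the row used for MAP2K1 before differentiation (50.3 FPKM) and below it after (92.4 FPKM). This switch depends on the row, since the longer row of MAP2K1, described below, was under MAP2K2 in every library. With the longer row in its place, the lead among the 4 MAP2K genes would pass from MAP2K5 (25.2 FPKM) to MAP2K1 with differentiation. MAPKAPK2 (24.1 and then 25.5 FPKM) was below MAPKAPK5 before differentiation (28.6 FPKM) and above it after (22.6 FPKM). The summed FPKM of the tier was 186 ± 20.3 and 96.8 ± 5.67 for MAP4K and 91.0 ± 1.4 and 67.3 ± 7.15 for MAP3K, undifferentiated first. It was 120 ± 22.1 and 158 ± 18.3 for MAP2K, 60.9 ± 2.89 and 49.8 ± 5.64 for JNK, and 41.3 ± 2.43 and 34.2 ± 4.43 for p38. These sums are descriptions over the 37 genes found, not totals of a tier, and are given without a test. They were lower in the differentiated mean for MAP4K, MAP3K, JNK and p38 and higher for MAP2K. Within MAP2K, the row used for MAP2K1 had the largest rise of the mean. MAP2K7 was higher as well (24.7 and then 28.8 FPKM), while MAP2K4 and MAP2K5 had lower means.

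Some genes were held by more than 1 row, and for these the level depends on the row. The longer row of MAP2K1 lies beside it on the other strand (ENSSSCG00000004943, 182187872 to 182222849). It was at 13.8, 15.8, 13.0 and 13.5 FPKM in undifferentiated and at 23.7, 37.1, 45 and 33.7 FPKM in differentiated cells. It rose as well (log2 1.22 ± 0.172 SE, limma adjusted p = 0.00202), so both rows of the symbol went the same way at different levels.

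The row of MAP3K5 lies inside a longer row on the same strand (ENSSSCG00000026041, chromosome 1, 30747547 to 31011709), which carries no symbol in the table and is MAP3K5 in the identifier table. That row was at 9.88 ± 1.86 FPKM in undifferentiated cells, the lowest library at 8.18, and at 1.86, 1.36, 4.42 and 2.48 FPKM in differentiated cells. The states did not overlap, and it fell (log2 -1.68 ± 0.209 SE, limma adjusted p = 0.00129), more than any of the 29 tested genes. How reads were shared between the overlapping rows is not stated in the sources used here.

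MAP3K7 had another row at 1.45 to 3.5 FPKM (log2 -0.09, adjusted p = 0.775). MAP2K5 had another row at 43.0 ± 4.56 and 39.2 ± 6.17 FPKM (log2 -0.14, adjusted p = 0.438), and MAPK8 one at 12.2 ± 3.12 and 13.1 ± 5.82 FPKM (log2 0.04, adjusted p = 0.925). For these 3 genes neither row was called.

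**Figure D3:**
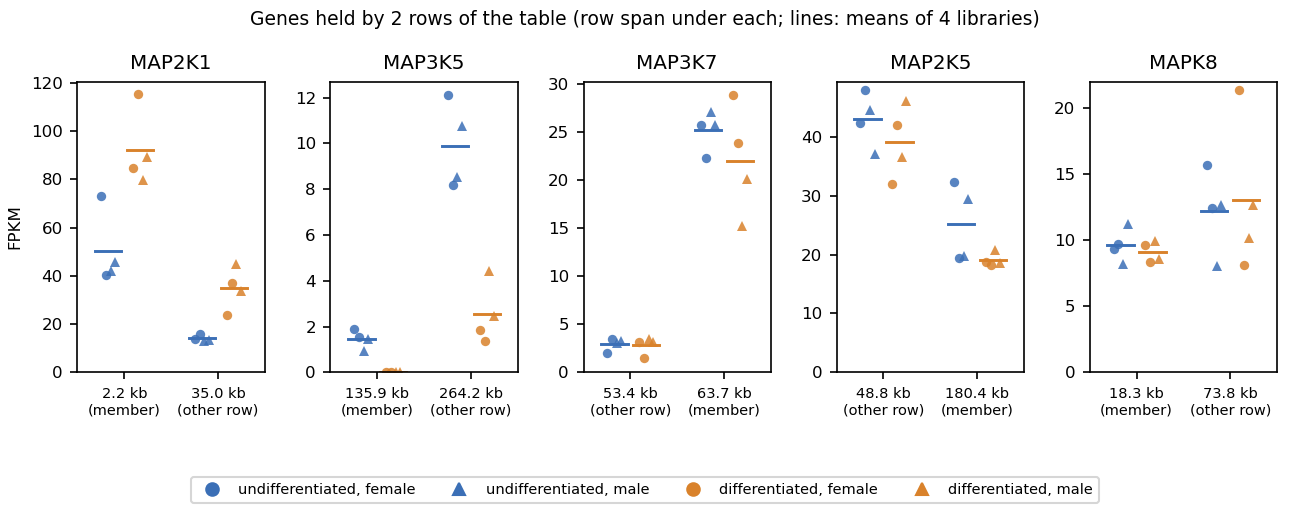
FPKM in each library for the 5 of the 37 genes that the table or the identifier table gives 2 rows, with the row span in kb. Circles are female and triangles male libraries, blue undifferentiated and orange differentiated, and lines are means of 4 libraries. Both rows of MAP2K1 are higher and both rows of MAP3K5 lower in differentiated cells, and the other 3 genes overlap in both rows.

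The effect of the state was also estimated within each sex. In females 7 of the 29 genes were called, 1 higher and 6 lower, beside 35.8% of all tested genes (12.5% higher and 23.3% lower). In males 7 were called, 1 higher and 6 lower, beside 33.0% of all tested genes (12.9% higher and 20.1% lower). MAP2K1 had log2 fold changes of 0.85 in females and 0.93 in males and passed in neither sex alone (limma adjusted p = 0.0668 and 0.0555). With 1 library left out, its group keeps only 1, so counts within a sex are not given for those fits.

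No gene of the cascade was called for a difference of the effect between the sexes, where 0.0231% of all tested genes were (limma, 0 of 29, and 1 at an unadjusted p under 0.05). That 1 was MAP3K7, with log2 fold changes of 0.13 in females and -0.57 in males (difference 0.70 ± 0.250 SE, adjusted p = 0.808). No gene was called between females and males averaged over the states, where 0.0849% of all tested genes were (limma, 0 of 29, and 4 at an unadjusted p under 0.05). These 4 were MAP2K7, MAP3K10 and MAPK8IP3, higher in females by 0.40, 0.51 and 0.30 on the log2 scale, and MAP2K4, with -0.26 (adjusted p from 0.431 to 0.501).

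Other genes of the pathway, outside the symbols above, were taken from a list of 102, of which 89 were found and 82 tested. Of these 18 rose (22%, near the 18.0% of all tested genes) and 35 fell (42.7%, beside 31.9% of all tested genes), and 29 did not pass. Their median log2 fold change was -0.30. Under median-ratio scaling 23 rose (28%) and 25 fell (30.5%), where 25.1% of all tested genes rose and 22.5% fell. The counts of the lists below are to be read against these shares, 18.0% higher and 31.9% lower without the scaling.

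At the entry to the ERK branch, among RAS, RAF and their adaptors, 6 of 16 rose and 5 fell, the latter near the share of all tested genes. Under median-ratio scaling 7 rose and 3 fell. KSR1, a scaffold for RAF, MEK and ERK, rose from 0.624 to 1.39 FPKM up to 4.35 to 6.82 FPKM (log2 1.85, limma adjusted p = 0.000524). ARAF, a RAF kinase, rose from 40.5 to 48.4 FPKM up to 95 to 135 FPKM (log2 1.27, limma adjusted p = 0.000222). NRAS (log2 -0.79) and NF1, which switches RAS off (log2 -0.73), fell. BRAF, a further RAF kinase, did not pass (log2 0.13, limma adjusted p = 0.513).

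Among the STE20 kinases under other names 2 of 9 rose, NRK (log2 1.43) and PAK1 (log2 0.58), and STK4 fell (log2 -0.91). The 2 of 9 are near the 18.0% of all tested genes, and under median-ratio scaling or quantile normalization 4 rose, with PAK2 and STK3 added. Of the 4 tested kinases that act as MAP3Ks under other names, TAOK3 fell (log2 -0.42) and 3 did not pass. Under median-ratio scaling TAOK3 was not called (adjusted p = 0.1) and TAOK1 was called as higher (log2 0.24, adjusted p = 0.0463). After quantile normalization TAOK3 was called as lower (limma adjusted p = 0.0443) and TAOK1 was not called (0.0745). Of 10 activators and adaptors of the stress branches 5 rose and 2 fell. GADD45G, which binds MAP3K4 (log2 1.09), and the ubiquitin ligase TRAF6 (log2 0.87) rose. The MAP3K7 partners split, since TAB2 (log2 0.60) and TAB3 (log2 0.36) rose while TAB1 (log2 -0.73) fell, as did RAC1 (log2 -0.68).

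Of 8 scaffolds 7 fell and 1 rose, where 31.9% of all tested genes fell. Under median-ratio scaling 4 fell and 1 rose, where 22.5% of all tested genes fell. IQGAP1, which holds ERK pathway kinases at the cytoskeleton, fell from between 79.8 and 98.5 FPKM to between 12.9 and 36.8 FPKM (log2 -2.12, limma adjusted p = 0.000328). SH3RF1, a JNK scaffold, fell as well (log2 -1.71), and FLNC, the filamin of muscle, rose (log2 0.81). Among 7 tested kinases that ERK or p38 activate, 3 fell and 4 did not pass, with RPS6KA4 (log2 -1.21) and MKNK2 (log2 -1.11) the most changed.

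Of 10 phosphatases 6 fell and 4 did not pass, beside 31.9% of all tested genes that fell. Under median-ratio scaling 4 fell and 1 rose, beside 22.5% that fell. DUSP6, which removes phosphate from ERK in the cytoplasm, fell from 43.4 to 58.4 FPKM down to 1.47 to 6.79 FPKM (log2 -3.62, limma adjusted p = 0.000576), and DUSP5 (log2 -3.88) fell similarly far. Among 18 transcription factors listed as substrates of the pathway, 10 fell and 4 rose, beside 31.9% and 18.0% of all tested genes. Under median-ratio scaling 8 fell and 4 rose, beside 22.5% and 25.1%. FOSL1 (log2 -1.99) and FOS (log2 -1.90) had the largest falls. The 4 that rose were MEF2C (log2 7.22), SRF (log2 1.12), MEF2A (log2 0.87) and MEF2D (log2 0.78), all factors of the muscle program.

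**Figure D4:**
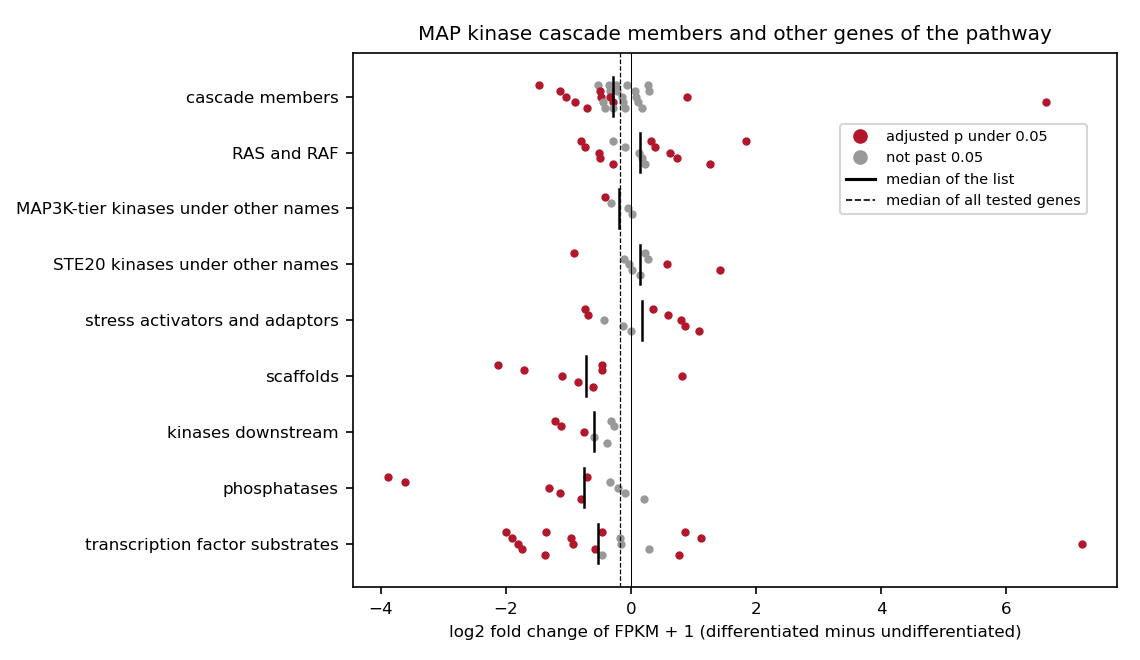
Log2 fold change of FPKM + 1 from undifferentiated to differentiated cells for the 29 tested cascade genes and the 82 other genes of the pathway, 1 list per line. Red points had an adjusted p under 0.05, black bars are list medians and the dashed line is the median of all tested genes, -0.18. Most cascade genes lie near that line, while the phosphatases reach -3.88 and the scaffolds -2.12.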

How the data were processed

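The authors' deposited table holds FPKM per gene and library. Per the submitters' processing notes, cutadapt 1.6, TopHat2 2.0.12.1, Cufflinks 2.2.1 and the build Sscrofa10.2 were used, with settings, scaling total and use of strand not given in the sources used here. Per the labels' protocols, libraries came from a stranded total RNA kit with 100-bp paired reads.

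Values were taken as log2(FPKM + 1), and the 12963 genes averaging 1 FPKM or more were fitted in R 4.3.3 with limma 3.58.1 (1 mean per group, no block, eBayes with trend, 4 residual and 2.09 prior degrees of freedom). Two-sided tests were adjusted by Benjamini and Hochberg across these genes, with a threshold of 0.05. The fit was tested on simulated data. Single values of some genes are not reported here, and counts over lists include them. Cascade genes, lists and alternatives were chosen with earlier results of these data known. Values in every library are given for the most abundant gene and the genes with the largest called changes of each tier, and for others chosen after their values were seen. For other pathway genes, the 2 largest changes per list and direction are named. BRAF, TAOK1, PAK2, STK3, TAB2, TAB3, MEF2A and MEF2D were named after their values were seen. Rows without a symbol were named from an Ensembl identifier table (1841 rows). Alternatives were another pseudocount, no filter, rescaling, a fit without trend, a replicate block, summed rows, leaving out short genes and leaving out each library.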

Additional observations from a re-analysis of the deposited data

Results flagged for a closer look

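In the 73 sets of 4 libraries (37 genes in 2 states, leaving out 1 with no spread), 7 held a value set apart from the other 3 by Dixon's test at the 95% level, where chance flags about 1 in 20. Undifferentiated female replicate 1 was high for MAP2K1 (73.2 FPKM). Undifferentiated female replicate 2 was high for MAPKAPK3 (19.7 FPKM) and MAPK8IP3 (13.6 FPKM) and low for MAP3K6 (0.286 FPKM). Undifferentiated male replicate 2 was high for MAP3K8 (1.59 FPKM). Differentiated male replicate 1 was high for MAP2K5 (20.7 FPKM), and differentiated male replicate 2 for MAP3K5, at a level next to 0 (2.70e-05 FPKM).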

How the results depend on the processing

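Under all alternatives, MAP3K7CL, MAP2K1, MAP4K4, MAP3K1, MAP3K12, MAP3K3 and MAPK1IP1L kept their direction and call. The number of cascade genes that rose was 4 under median-ratio scaling. Leaving out 1 library at a time gave 2 that rose and 6 to 8 that fell, and 3 to 7 called within males, where an arm left with 1 library is assumed to vary like the others. Without differentiated male replicate 1, 8 of the 11 calls were left. In each of the fits with 1 library left out, the share of all tested genes that was called was lower as well, also within males. With a replicate block by sex and number 2 rose and 10 fell, beside 17% and 30.5% of all tested genes. MAPK9 was lost (adjusted p = 0.074), and MAPK3 (0.0429) and MAPKAPK5 (0.0351) were gained. Whether the numbers pair the libraries is unknown. Deviations of same-numbered libraries correlated at 0.0684 in females and -0.0264 in males, which with 2 libraries per group cannot decide it. Of 4 undifferentiated libraries 2 correlated best with their own number, as did 2 of 4 differentiated ones. Without the filter, MAPK9 and MAPKAPK3 were lost and MAP3K5 was called. MAPK9 was also lost without trend, and MAPKAPK5 was gained without short genes or without differentiated male replicate 2. MAPK12 was gained without undifferentiated female replicate 1 (adjusted p = 0.0271) and MAPK14 without undifferentiated female replicate 2 (0.0495). The cause of these changes was not tested. The depth in reads is unknown, so no counting error is given.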

Other observations

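The identifier table and the alias MKK6 named 13 further rows of the cascade, of which 11 were tested. Of these 5 fell and 6 did not pass (limma, 0 rose, with 0 higher at an unadjusted p under 0.05), where 31.9% of all tested genes fell and 18.0% rose. Besides the longer row of MAP3K5, MAP3K4, a GADD45-activated kinase, fell from 13.1 ± 1.90 to 7.35 ± 1.58 FPKM (log2 -0.76, limma adjusted p = 0.0068). MAP3K20, a kinase that senses stalled ribosomes, fell from 23.9 ± 2.38 to 14 ± 2.95 FPKM (log2 -0.75, limma adjusted p = 0.0111). MAP3K21 (log2 -0.59, adjusted p = 0.0196) and MAPKBP1, a JNK-binding protein (log2 -0.35, adjusted p = 0.0271), also fell, and neither was called under median-ratio scaling (adjusted p = 0.0596 and 0.332). After quantile normalization MAP3K21 was called as lower and MAPKBP1 was not called (limma adjusted p = 0.0153 and 0.214).

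MAP2K2, the other kinase directly upstream of the ERKs, was at 55.7, 59.5, 52.3 and 57.0 FPKM and then at 66.2, 69.0, 54.0 and 68.7 FPKM. Its groups overlapped through differentiated male replicate 1 (log2 0.19, 95% interval -0.06 to 0.44, limma adjusted p = 0.166). Under median-ratio scaling it was called as higher (log2 0.42, adjusted p = 0.0224), and after quantile normalization it was not called (limma adjusted p = 0.0845). MKK6, a kinase upstream of p38, was at 6.57 ± 1.38 and 4.83 ± 1.67 FPKM (log2 -0.41, limma adjusted p = 0.134). Another row of MKK6 had a mean of 0.0262 FPKM, below the level tested. MAPKAPK2, the main p38-activated kinase, was at 24.1 ± 3.55 and 25.5 ± 4.87 FPKM (log2 0.07, 95% interval -0.14 to 0.28). It was called as higher under median-ratio scaling (log2 0.29, adjusted p = 0.0314) and not called after quantile normalization (limma adjusted p = 0.0594).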
